A study of Homo sapiens with 12 samples.

Results

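Cohesin was described across siRNA knockdowns of 3 splicing factors through 10 genes of the complex and its regulators: SMC1B, SMC1A, SMC3, RAD21, REC8, STAG1, STAG2, STAG3, WAPL and NIPBL. SMC1B was picked because its level was raised in CHERP knockdown, so its values in every contrast that holds the CHERP libraries, or the control libraries they were set against, are given as a description with no test. The other 9 genes were picked by name, with earlier results of these data known, and were tested in every contrast. Their p-values do not account for that choice. Each of the 10 symbols matched 1 of the 60554 gene IDs in the count files, and all 10 were among the 29003 genes that passed the filter on low counts.

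Cohesin is a protein ring that holds sister chromatids together from replication to anaphase and folds chromatin into loops. In dividing somatic cells the ring consists of SMC1A and SMC3, closed by the kleisin RAD21, with STAG1 or STAG2 bound to it. NIPBL loads the ring and drives its movement along DNA, and WAPL releases it. In germ cells that enter meiosis, SMC1B, REC8 and STAG3 take the places of SMC1A, RAD21 and the somatic STAG subunits in part of the complexes.

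The RNA came from HEK293 cells, a human embryonic kidney line. The labels name HEK293 under source but HEK293T, the subline with the SV40 large T antigen, under cell line, and give 10 passages. All cultures grew in DMEM with FBS. They received an ON-TARGETplus SMARTpool targeting RBM17, CHERP or U2SURP RNA, or, as control, ON-TARGET plus Non-targeting siRNA #3, for which the label names no pool. The 3 targets act with the U2 snRNP, which recognises the branch point during splicing, and the design asks how RNA levels respond to the loss of each. Every group held 3 libraries, 12 in all, made with a stranded poly(A) mRNA kit, and the time after transfection is not given in the sources used here.

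Each library held between 252505520 and 320986785 reads assigned to genes. Levels are CPM, the read count per library total in the usual unit after scaling between libraries, with the mean and SD of each group's 3 libraries, and log2 fold changes carry ± SE with Benjamini-Hochberg adjusted p-values over all genes tested. The targeted RNA was lower in all 3 libraries of its group, from 115 to 26.5 CPM for RBM17, from 471 to 144 CPM for U2SURP and from 61.3 to 18.0 CPM for CHERP. The labels do not state separate cultures, and the p-values therefore reflect only the spread among these libraries, which may be technical. The library numbers in the titles are consecutive within a group, and a batch of preparation cannot be told apart from the group. Control library 3 lay at 8.26 on the first principal component, against 25.1 and 28.2 for the other controls, and had the fewest detected genes of its group, as did RBM17 library 2. Mitochondrially encoded genes took 7.88 to 8.70% of counts in the control libraries and 3.98 to 5.15% in the knockdowns, and the part of this share in the results was not tested. Of genes known from HEK293 cells, VIM stood at 262 CPM, NEFM at 259 CPM, KRT18 at 40.6 CPM, KRT8 at 36.5 CPM and PAX2 at 1.25 CPM in control, and all 5 were found in every library. They were not constant: in CHERP knockdown NEFM fell to 146 CPM and PAX2 to 0.516 CPM, while VIM (396 CPM), KRT8 (53.5 CPM) and KRT18 (54.8 CPM) were above control, and the part of this in the results was not tested. These 5 were chosen after their values were seen. Blood cell markers summed to 3.06 to 5.66 CPM, with HBB at 0 in all 12 libraries, and fibroblast markers to 11.3 to 24.1 CPM, most of it COL1A1 (18.9 CPM in control). Of 7 tested fibroblast markers 3, 3 and 4 fell in RBM17, U2SURP and CHERP knockdown and none rose, where 29.3%, 22.2% and 24.6% of all genes tested were called lower.

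SMC1B and SMC1A both lie head to head with a gene of the RIBC family, and the sequence between each pair of starts is shown because the results below set each cohesin gene beside its partner. The windows are RefSeq promoters on GRCh38.p14, from 250 bases before to 50 bases after an annotated start, printed 5′ to 3′ on the strand of the cohesin gene. In the first pair of lines capitals mark the bases from the GENCODE 29 start of the cohesin gene to that of its partner, both included, which are 73 bases for SMC1B (chr22:45413550-45413849, minus strand) and 39 bases for SMC1A (chrX:53422605-53422904, minus strand). REC8 (chr14:24171830-24172129, plus strand) and STAG3 (chr7:100177668-100177967, plus strand) are shown as the meiotic genes that fell together in RBM17 knockdown, with capitals on the searched words found in them.
SMC1B: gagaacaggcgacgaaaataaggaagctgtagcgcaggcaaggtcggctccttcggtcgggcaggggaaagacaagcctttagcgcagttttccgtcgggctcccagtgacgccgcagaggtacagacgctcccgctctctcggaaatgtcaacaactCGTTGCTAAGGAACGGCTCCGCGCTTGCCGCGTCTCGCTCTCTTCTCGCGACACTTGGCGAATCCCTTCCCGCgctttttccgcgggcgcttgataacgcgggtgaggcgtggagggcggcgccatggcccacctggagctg
SMC1A: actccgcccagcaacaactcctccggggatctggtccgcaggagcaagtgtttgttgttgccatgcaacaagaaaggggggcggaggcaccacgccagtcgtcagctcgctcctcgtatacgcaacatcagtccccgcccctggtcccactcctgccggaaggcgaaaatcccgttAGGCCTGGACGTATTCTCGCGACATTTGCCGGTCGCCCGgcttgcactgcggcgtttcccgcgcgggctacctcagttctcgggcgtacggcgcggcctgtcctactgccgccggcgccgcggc
REC8: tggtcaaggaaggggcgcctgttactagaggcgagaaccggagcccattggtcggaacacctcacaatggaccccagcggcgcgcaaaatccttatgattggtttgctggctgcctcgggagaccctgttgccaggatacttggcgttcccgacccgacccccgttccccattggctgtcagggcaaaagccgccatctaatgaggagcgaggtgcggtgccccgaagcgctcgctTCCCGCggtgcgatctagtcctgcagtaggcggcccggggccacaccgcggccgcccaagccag
STAG3: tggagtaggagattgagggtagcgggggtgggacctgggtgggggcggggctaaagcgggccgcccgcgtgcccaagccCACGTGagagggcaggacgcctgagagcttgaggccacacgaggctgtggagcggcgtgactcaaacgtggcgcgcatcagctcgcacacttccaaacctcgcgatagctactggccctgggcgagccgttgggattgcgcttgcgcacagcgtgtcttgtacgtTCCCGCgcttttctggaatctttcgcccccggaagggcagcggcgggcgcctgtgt
The words searched on both strands were CACGTG, the E-box bound by MYC and other basic helix-loop-helix proteins, TTTGAA, the core of the CHR element of cell cycle promoters, and TCCCGC, a core of E2F sites. Of 35116 promoter windows of this length, 7.26% held CACGTG, 15.2% held TTTGAA and 26.9% held TCCCGC. The SMC1B window held TCCCGC at 2 places and neither of the other words. The printed SMC1A window and the REC8 window held TCCCGC at 1 place, and the STAG3 window held CACGTG and TCCCGC at 1 place each. SMC1A and STAG3 each have another window, not shown, with TCCCGC at 0 and 1 places. The word was not particular to the meiotic genes, with 2 places in the WAPL window and 1 in that of STAG1. The SMC1B window had 34 CpG dinucleotides against a median of 14 over all windows, and high numbers were not particular to it, with 44 in the window of WAPL, 37 in that of STAG1 and 30 in that of NIPBL. The longest word that the capitals of SMC1B and SMC1A share is TTCTCGCGACA, on the same strand. It was found after both sequences were seen and occurs in 11 of the 35116 windows (0.0313%). These include the windows of SMC1B and SMC1A and those of RIBC2 and RIBC1, which span the same bases, so the share is not a background rate. RefSeq windows were matched for 9 of the 10 genes. These matches describe letters and do not show that a factor binds there.

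Per length, the 10 RNAs fell into an abundant somatic set and a scarce meiotic set. On the scale of CPM per kb of merged exons, SMC1A stood highest in control (67.3 ± 3.11, n = 3), before SMC3 (57.6 ± 4.42), STAG2 (50.3 ± 4.08) and RAD21 (36.5 ± 3.12). WAPL (17.4 ± 0.989) and NIPBL (17.3 ± 0.531) followed, then STAG1 (9.25 ± 0.278). The meiotic subunits stood lowest, with REC8 at 0.888 ± 0.0605, SMC1B at 0.763 ± 0.0218 and STAG3 at 0.494 ± 0.083 CPM per kb. The intervals of ± 1 SD overlapped for the neighbours SMC3 and STAG2 and for WAPL and NIPBL, and not for the other neighbours in this order. By coding length SMC1A again came first and the 3 meiotic genes last, but RAD21 (119 ± 10.2 CPM per kb) and STAG2 (108 ± 8.78) stood above SMC3 (67.4 ± 5.18), and STAG3 (1.15 ± 0.194) above SMC1B (0.876 ± 0.025). In CHERP knockdown SMC1B reached 3.19 ± 0.501 CPM per kb and stood above REC8 (0.850 ± 0.0364), while it stayed below STAG1 (8.69 ± 0.472).

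**Figure D1:**
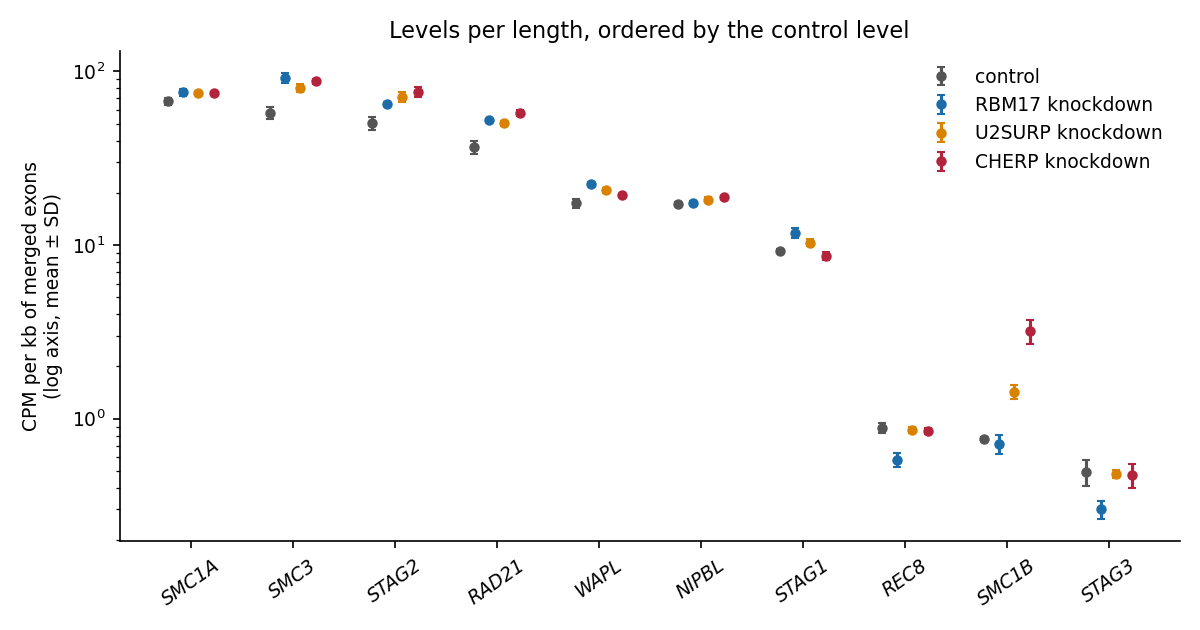
Level of each cohesin gene per length in CPM per kb of merged exons (log axis), as mean ± SD of 3 libraries for control and each knockdown, ordered by the control mean. The 7 somatic genes lie at 9.25 or above in control and the 3 meiotic genes at 0.888 or below, with SMC1B in CHERP knockdown at 3.19.

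SMC1B (ENSG00000077935.16, GRCh38 chromosome 22, 45344063 to 45413619, minus strand) encodes the meiotic partner of SMC3. Its level was near 3 CPM in control and RBM17 knockdown, about 6 CPM in U2SURP knockdown and near 14 CPM in CHERP knockdown. The control libraries read 3.17, 3.35 and 3.22 CPM (3.25 ± 0.0928) and the RBM17 knockdown libraries 3.20, 3.34 and 2.61 CPM (3.05 ± 0.391). The U2SURP knockdown libraries read 5.48, 6.10 and 6.60 CPM (6.06 ± 0.562). In the CHERP knockdown libraries the values were 11.1, 14.6 and 15.0 CPM (13.6 ± 2.13), from 3135 to 4652 counts, against 794 to 963 counts in control. The U2SURP libraries lay above every control and RBM17 library, the CHERP libraries lay above all others, and control and RBM17 libraries overlapped. CHERP library 1 was the lowest of its group. The level in U2SURP knockdown was 1.87-fold that of control (log2 0.90 ± 0.11), between 0.84 and 0.95 over the alternatives, and that in RBM17 knockdown differed by -0.09 ± 0.11, or 0.012 without RBM17 library 3. The contrast that holds neither control nor CHERP libraries was tested, and there SMC1B was lower in RBM17 than in U2SURP knockdown (-0.99 ± 0.11, adjusted p = 8.09e-08). In CHERP knockdown the level was 4.18-fold that of control (log2 2.06 ± 0.11), between 1.95 and 2.19 over the alternatives, which places SMC1B at rank 9 of 12850 protein-coding genes with a mean of at least 1 CPM. The 3 knockdowns share the control libraries, here and in what follows, and in bulk RNA a change in the number of cells that carry a transcript and a change in its amount per cell cannot be told apart.

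SMC1B shares no stretch of 50 bases with the annotated transcripts of another gene, so its counts cannot be split with a copy of that likeness. SMC1B acts in the meiosis of germ cells, which does not make it a marker of them, and of 11 germ cell markers 6 passed the filter. Their summed level was 1.44 to 1.55 CPM in control, 1.29 to 1.68 in RBM17, 2.27 to 2.53 in U2SURP and 2.82 to 2.95 CPM in CHERP knockdown. PIWIL2, a PIWI protein of the germ line, carried this increase, from 0.560 CPM in control to 1.58 in U2SURP knockdown (log2 1.49, adjusted p = 5.77e-09) and 1.89 CPM in CHERP knockdown (1.75, adjusted p = 1.87e-10), and it rose in RBM17 knockdown as well (0.76, adjusted p = 4.13e-05). DDX4, a helicase that defines germ cells, was at 0.202 CPM in control and passed no test against it. The protamine PRM2 was at 0 in all 12 libraries, and DAZL, PIWIL1, PRM1 and TNP1 were too low to be tested. Of the other markers MAEL and NANOS3 were lower in RBM17 knockdown and NANOS2 in U2SURP knockdown. The part of these markers in the SMC1B result was not tested.

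**Figure D2:**
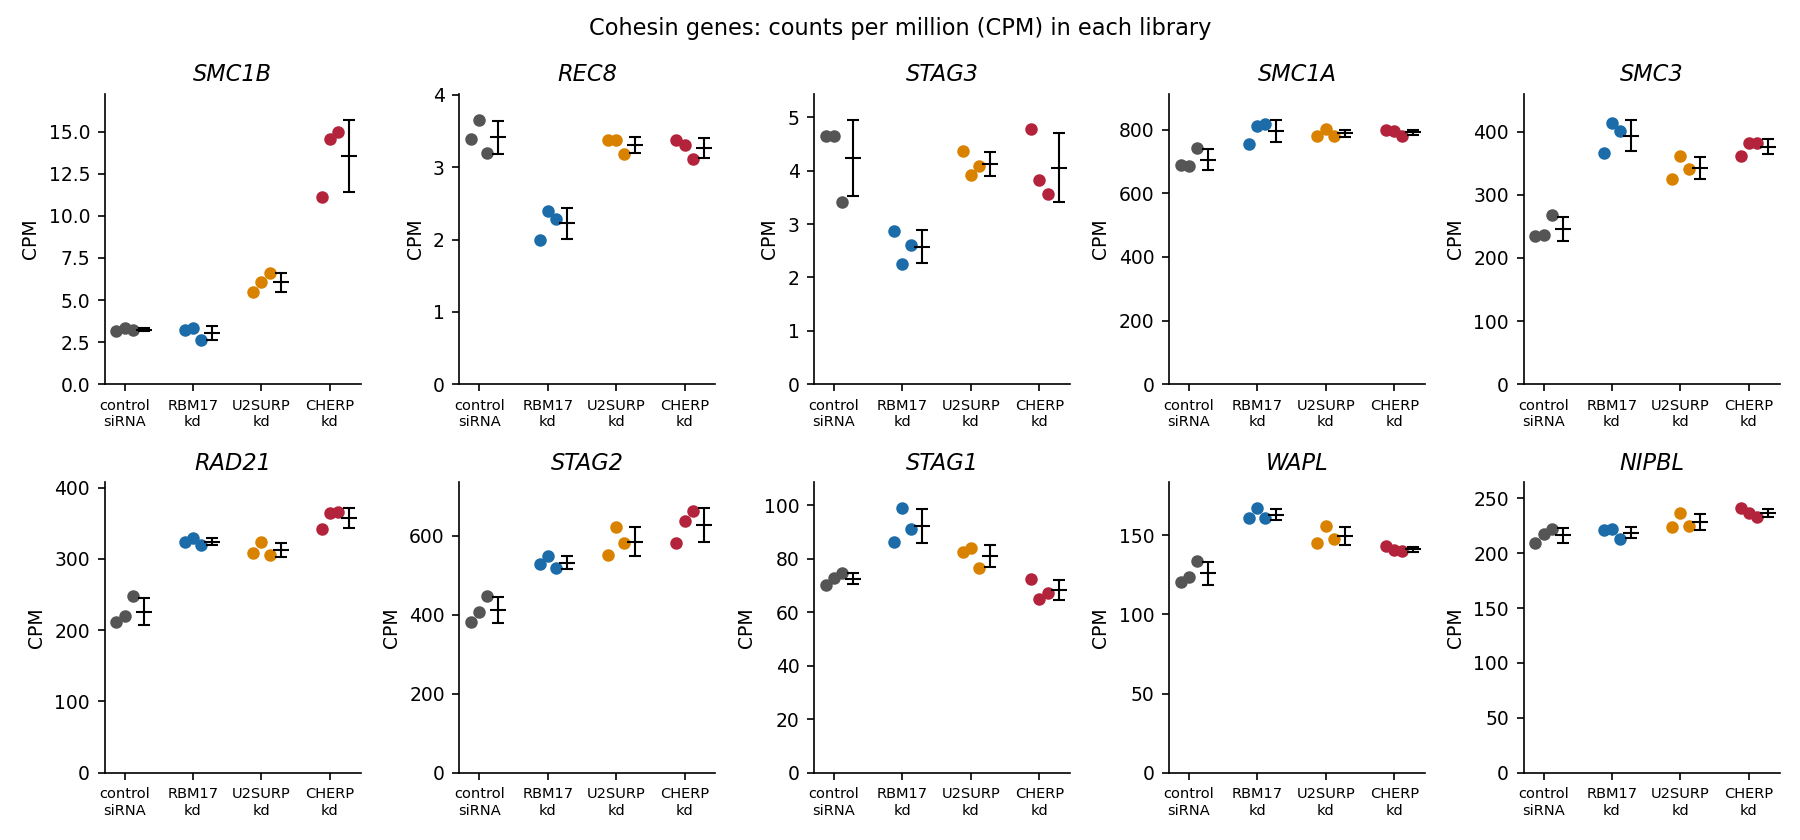
Level of each cohesin gene in CPM (y axis, from 0, scaled per gene) in the 12 libraries, with the mean ± SD of each group in black beside its 3 points; kd means knockdown. SMC1B stands at 11.1 to 15.0 CPM in CHERP knockdown and 3.17 to 3.35 in control, and REC8 and STAG3 are low in the RBM17 knockdown libraries.

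SMC1A and SMC3, the somatic SMC pair, were higher in all 3 knockdowns, SMC3 by more than SMC1A. SMC3 (ENSG00000108055.9, chromosome 10, 110567691 to 110604636, plus strand) read 234, 237 and 268 CPM in control and 366, 414 and 401 in RBM17 knockdown. It read 325, 361 and 341 CPM in U2SURP and 362, 382 and 383 in CHERP knockdown. No knockdown library overlapped a control. SMC3 rose by 0.68 ± 0.061 in RBM17 knockdown (1.60-fold, adjusted p = 1.71e-09), by 0.48 ± 0.061 in U2SURP knockdown (adjusted p = 9.19e-07) and by 0.61 ± 0.061 in CHERP knockdown (adjusted p = 1.44e-08). SMC1A (ENSG00000072501.17, chromosome X, 53374149 to 53422728, minus strand) averaged 705 ± 32.6 CPM in control, 796 ± 35.1 in RBM17, 788 ± 11.5 in U2SURP and 791 ± 9.05 CPM in CHERP knockdown. Its lowest knockdown library, at 755 CPM, lay just above the highest control, at 743 CPM. SMC1A rose by 0.17 ± 0.052 in RBM17 knockdown (adjusted p = 0.00673), by 0.16 ± 0.052 in that of U2SURP (0.015) and by 0.17 ± 0.052 in that of CHERP (0.0109). The U2SURP call was lost without U2SURP library 2 (adjusted p = 0.0633), control 1 (0.0682) or control 2 (0.0668), and the CHERP call without control 1 (0.0523) or control 2 (0.0513). Per length of merged exons SMC1A was 117 ± 3.56% of SMC3 in control, 82.5 ± 2.14% in RBM17, 94.1 ± 3.81% in U2SURP and 86.0 ± 3.48% with CHERP knockdown. By coding length, an alternative chosen after seeing the data, it was 283 ± 8.62%, 199.8 ± 5.18%, 228 ± 9.23% and 208 ± 8.44% in the same order, so whether SMC1A stood above SMC3 in the knockdowns depends on the length used. For SMC3, 7.93% of its 50-base stretches also occur in the gene AC019097.1, and for SMC1A none occurs elsewhere.

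Of the kleisins that close the ring, RAD21 rose in all 3 knockdowns, and REC8 fell in that of RBM17. RAD21 (ENSG00000164754.12, chromosome 8, 116845935 to 116874866, minus strand) read 211, 220 and 248 CPM in control. It read 323, 330 and 320 CPM in RBM17, 308, 323 and 305 in U2SURP and 341, 365 and 365 CPM in CHERP knockdown. All 9 knockdown libraries lay above the controls. RAD21 rose by 0.52 ± 0.057 (adjusted p = 3.66e-08), 0.46 ± 0.057 (5.02e-07) and 0.66 ± 0.057 (1.4e-09) in RBM17, U2SURP and CHERP knockdown. Of its 50-base stretches 7.37% also occur in UTP23 and 4.17% in RAD21-AS1, both on the opposite strand. UTP23 rose in RBM17 knockdown (0.21, adjusted p = 0.00804), and RAD21-AS1 passed no test.

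REC8 (ENSG00000100918.12, chromosome 14, 24171853 to 24180257, plus strand), the meiotic kleisin, was lower in RBM17 knockdown than in the other groups. It read 3.39, 3.65 and 3.19 CPM in control and 1.99, 2.40 and 2.28 CPM in RBM17 knockdown. The values were 3.37, 3.38 and 3.18 CPM in U2SURP and 3.38, 3.31 and 3.11 CPM in CHERP knockdown. The RBM17 libraries lay below all 9 others, which overlapped among themselves. REC8 fell by 0.62 ± 0.095 on the log2 scale in RBM17 knockdown (1.54-fold lower, adjusted p = 6.2e-06). The differences from control were -0.04 ± 0.094 in U2SURP (adjusted p = 0.744) and -0.06 ± 0.094 in CHERP knockdown (adjusted p = 0.614). The RBM17 level was also lower than that of U2SURP knockdown (-0.58 ± 0.095, adjusted p = 2.59e-05), and the CHERP level was higher than that of RBM17 knockdown (0.56 ± 0.095, adjusted p = 2.95e-05). REC8 overlaps the end of IPO4, which passed no test against control, and it shares no 50-base stretch with another gene.

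Of STAG1 and STAG2, the alternative somatic subunits of the ring, STAG2 rose in all 3 knockdowns and STAG1 in those of RBM17 and U2SURP. STAG2 (ENSG00000101972.18, chromosome X, 123960212 to 124422664, plus strand) read 382, 406 and 448 CPM in control and 528, 549 and 518 in RBM17 knockdown. It read 550, 623 and 580 CPM in U2SURP and 580, 636 and 663 CPM in CHERP knockdown. All knockdown libraries lay above the controls, and U2SURP and CHERP libraries overlapped. STAG2 rose by 0.37 ± 0.063 in RBM17 (adjusted p = 2.66e-05), 0.51 ± 0.063 in U2SURP (7.49e-07) and 0.61 ± 0.064 in CHERP knockdown (3.29e-08). TENM1, which overlaps STAG2 on the opposite strand and shares 2.3% of its 50-base stretches, fell in all 3 (-1.12, -0.24 and -0.63). AL121601.1, which overlaps the start of STAG2 on the opposite strand, fell in RBM17 knockdown from 0.442 CPM in control (-0.65, adjusted p = 0.00974). AL022718.1 passed no test.

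STAG1 (ENSG00000118007.12, chromosome 3, 136336233 to 136752403, minus strand) read 70.2, 72.9 and 74.6 CPM in control and 86.1, 98.8 and 91.3 CPM in RBM17 knockdown. It read 82.5, 83.9 and 76.5 CPM in U2SURP and 72.2, 65.0 and 67.3 CPM in CHERP knockdown. RBM17 libraries were highest and did not overlap the rest, U2SURP libraries lay above the controls, and CHERP libraries overlapped them. STAG1 rose by 0.34 ± 0.057 in RBM17 knockdown (adjusted p = 1.74e-05) and by 0.16 ± 0.057 in U2SURP knockdown (0.0279), and differed by -0.09 ± 0.057 in CHERP knockdown (0.206). The U2SURP call was lost without U2SURP library 1 (adjusted p = 0.133) or 2 (0.127), or control 1 (0.107) or 2 (0.0641). PCCB, a mitochondrial carboxylase subunit that overlaps STAG1 on the opposite strand, holds 20.0% of the 50-base stretches of STAG1. It rose in all 3 knockdowns (0.63, 0.36 and 0.29). Of 2 further genes at STAG1 that passed the filter, AC117382.1 lies within its span and AC117382.2 starts 227 bp from its start on the opposite strand. Both were scarce, at 0.451 and 0.540 CPM in control. AC117382.1 rose in RBM17 and U2SURP knockdown (1.10 and 0.74) and stood at 0.40 in CHERP knockdown. AC117382.2 fell in RBM17 and U2SURP knockdown (-0.99 and -0.69) and stood at 0.31 in CHERP knockdown. The strand setting of the counting is not given in the sources used here.

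STAG3 (ENSG00000066923.17, chromosome 7, 100177563 to 100221488, plus strand), the meiotic STAG subunit, was lower in RBM17 knockdown, like REC8. It read 4.65, 4.64 and 3.41 CPM in control and 2.87, 2.26 and 2.60 CPM in RBM17 knockdown. The values were 4.37, 3.92 and 4.08 CPM in U2SURP and 4.78, 3.82 and 3.56 CPM in CHERP knockdown. The RBM17 libraries lay below all others, and control library 3 was the lowest of the rest. STAG3 fell by 0.72 ± 0.12 in RBM17 knockdown (1.64-fold lower, adjusted p = 2.82e-05). It differed by -0.04 ± 0.12 in U2SURP (0.817) and -0.06 ± 0.12 in CHERP knockdown (0.698), and these values turned to 0.031 and 0.0078 without control 1. Counts of STAG3 are uncertain, since 30.9% of its 50-base stretches occur in other genes, with 16.0% in PVRIG, 8.25% in CASTOR3 and the rest in partial copies of STAG3 and genes near them. Of 5 STAG3 copies, STAG3L2, STAG3L3 and STAG3L5P fell in RBM17 and U2SURP knockdown, STAG3L4 rose in both, and these 4 fell in CHERP knockdown, STAG3L3 by 1.33 on the log2 scale. PVRIG, at only 0.261 CPM in control, fell in all 3 knockdowns (-1.03, -0.79 and -0.78), as did CASTOR3 (-0.53, -0.35 and -0.48). GPC2, a glypican whose start lies 191 bp from that of STAG3 on the opposite strand, also fell in all 3 (-0.52, -1.24 and -1.13).

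WAPL and NIPBL, which release and load cohesin, had smaller log2 changes in each knockdown than the ring subunits SMC3 and RAD21. This did not hold for every subunit. In RBM17 knockdown WAPL stood at 0.37, above SMC1A (0.17) and STAG1 (0.34). In U2SURP knockdown it stood at 0.25, above SMC1A and STAG1 (both 0.16). Differences between genes were not tested. WAPL (ENSG00000062650.17, chromosome 10, 86435256 to 86521815, minus strand) averaged 126 ± 7.15 CPM in control, 163 ± 3.46 in RBM17, 149 ± 5.53 in U2SURP and 141 ± 1.68 CPM in CHERP knockdown. Its lowest knockdown library stood at 140 CPM and its highest control at 134 CPM. WAPL rose by 0.37 ± 0.051 in RBM17 (adjusted p = 1.07e-06), 0.25 ± 0.051 in U2SURP (0.000315) and 0.16 ± 0.050 in CHERP knockdown (0.00954), the last lost without control 1 (0.0631) or CHERP library 3 (0.0506). NIPBL (ENSG00000164190.16, chromosome 5, 36876759 to 37066413, plus strand) averaged 216 ± 6.65 CPM in control, 219 ± 5.16 in RBM17, 228 ± 7.18 in U2SURP and 237 ± 4.02 CPM in CHERP knockdown. NIPBL rose in CHERP knockdown by 0.13 ± 0.048 (adjusted p = 0.0286). That call was lost with no filter (0.0793) and without control 1 (0.125), control 2 (0.058) or CHERP library 1, 2 or 3 (0.0805, 0.0747 and 0.112). Beside WAPL, AL731569.1 fell in RBM17 knockdown (-0.29, adjusted p = 0.0126). Within NIPBL the scarce keratin pseudogene KRT18P31 rose in CHERP knockdown, from 0.135 to 0.268 CPM (1.00, adjusted p = 0.0244). NIPBL itself differed by 0.02 ± 0.048 in RBM17 (0.782) and 0.08 ± 0.048 in U2SURP knockdown (0.2).

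Counted without SMC1B, which was picked against the same control libraries, 6 of the other 9 genes rose and 2 fell in RBM17 knockdown, where 25.4% and 29.3% of all genes tested were called higher and lower (54.7% in all). In U2SURP knockdown 6 of these 9 rose and none fell, against 21.1% higher and 22.2% lower of all genes (43.3% called). In CHERP knockdown 6 of the 9 rose and none fell, against 22.8% higher and 24.6% lower of all genes (47.3% called), from which nothing is read since SMC1B was picked in this contrast. The count in CHERP knockdown was 3 without control library 1. Among protein-coding genes at 100 to 1000 CPM, where 6 of the 10 genes lie in every group mean, 56.8% were called higher in RBM17, 47.2% in U2SURP and 44.5% with CHERP knockdown, so a rise was common at that level. Among those at 1 to 10 CPM, the range of the 3 meiotic subunits in control, 38.1% were called lower in RBM17 knockdown. Median log2 changes of the 10 genes, with SMC1B included, were 0.26, 0.20 and 0.16 in RBM17, U2SURP and CHERP knockdown. The medians were -0.10, -0.02 and -0.0035 over all genes tested and 0.06, 0.01 and -0.0028 over protein-coding genes. Over protein-coding genes at 100 to 1000 CPM they were 0.21, 0.11 and 0.088, so a positive median was common at that level. At 1 to 10 CPM they were -0.062, -0.099 and -0.11. The 10 genes lie at more than 1 of these levels, so the sets are unlike, and the difference between them was not tested.

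**Figure D3:**
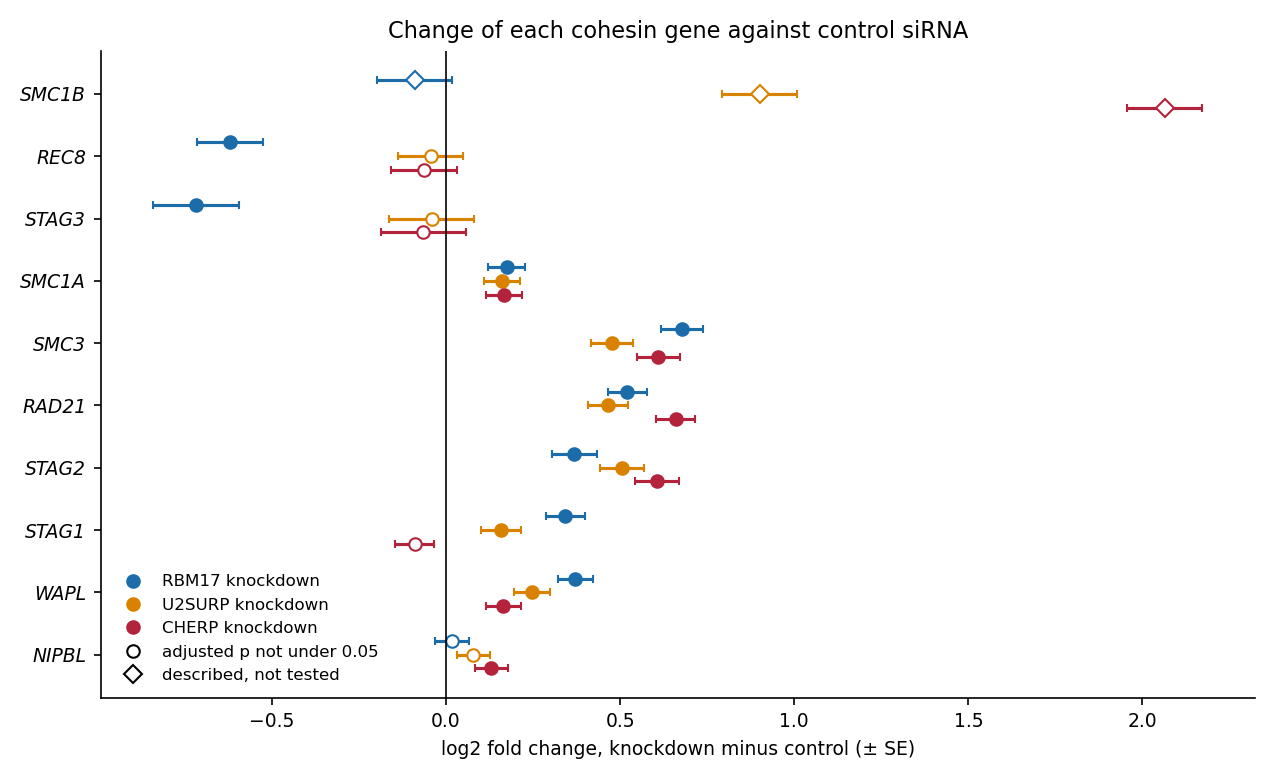
Log2 fold change (x axis, ± SE) of each cohesin gene in the 3 knockdowns against control; filled points passed an adjusted p of 0.05, open circles did not, and diamonds are SMC1B, which is described with no test against control. SMC3, RAD21 and STAG2 lie right of 0 in all 3, from 0.37 to 0.68, and REC8 and STAG3 lie left of 0 in RBM17 knockdown, at -0.62 and -0.72.

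The knockdowns were also compared directly with each other, and REC8, STAG3, STAG1 and WAPL were called between RBM17 knockdown and both others, STAG1 and WAPL less firmly against U2SURP knockdown. Between RBM17 and U2SURP knockdown, 3 of 10 genes were higher (SMC3 0.20, STAG1 0.19 and WAPL 0.12) and 3 lower (SMC1B, REC8 and STAG3) in RBM17, where 23% and 21.5% of all genes were (44.5% called). Fitted on protein-coding genes alone, that split became 1 higher and 5 lower, with STAG1 (adjusted p = 0.0521) and WAPL (0.198) no longer called. The 3 higher calls were all lost without RBM17 library 2, at adjusted p of 0.0599, 0.098 and 0.159, STAG1 and WAPL also without U2SURP library 3 (0.0794 and 0.135), and WAPL without RBM17 library 3 (0.0756). Between CHERP and RBM17 knockdown, 4 of 9 tested genes were higher in CHERP (RAD21 0.14, STAG2 0.24, REC8 0.56 and STAG3 0.65) and 2 lower (STAG1 -0.43, adjusted p = 7.93e-07, and WAPL -0.21, adjusted p = 0.00132), against 25.5% and 26.1% of all genes (51.6% called). RAD21 in this contrast (adjusted p = 0.0437) was lost under the DESeq2 Wald test (0.144), with DESeq2 size factors (0.135), with no filter (0.0549) and without RBM17 library 1, 2 or 3 (0.0718, 0.065 and 0.12) or CHERP library 2 or 3 (0.138 and 0.379), and STAG2 (0.00299) without CHERP library 3 (0.0897). Between CHERP and U2SURP knockdown, RAD21 was higher in CHERP (0.19, adjusted p = 0.0113), STAG1 lower (-0.25, adjusted p = 0.00184) and 7 of 9 were not called, against 12.9% higher and 15% lower of all genes (27.9% called). RAD21 there was lost without U2SURP library 3 (0.058) or CHERP library 2 (0.0564) or 3 (0.0511), and fitted on protein-coding genes alone 2 genes were higher and 1 lower. SMC1B in CHERP knockdown was 4.45-fold its level in RBM17 and 2.24-fold its level in U2SURP knockdown, with no test.

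Meiotic subunits were compared with their somatic counterparts per length of merged exons, as a description. SMC1B stood at 1.14 ± 0.0679% of SMC1A in control, 0.947 ± 0.142% in RBM17, 1.90 ± 0.178% in U2SURP and 4.23 ± 0.697% with CHERP knockdown. By coding length the percentages were 0.460, 0.384, 0.768 and 1.71, in the same order. REC8 stood at 2.45 ± 0.328% of RAD21 in control and at 1.10 ± 0.0974%, 1.71 ± 0.0487% and 1.48 ± 0.113% in RBM17, U2SURP and CHERP knockdown. The control libraries, at 2.07 to 2.68%, lay above all knockdown libraries, with RAD21 higher in every knockdown and REC8 lower in RBM17 alone. STAG3 stood at 0.994 ± 0.234% of STAG2 in control and at 0.463 ± 0.0648%, 0.676 ± 0.0791% and 0.624 ± 0.144% in the knockdowns. STAG1, the somatic alternative, stood at 18.4 ± 0.948% of STAG2 in control, 18.1 ± 0.919% in RBM17, 14.5 ± 1.01% in U2SURP and 11.4 ± 1.37% with CHERP knockdown. The CHERP libraries, at 10.6 to 13.0%, lay below all others, whose lowest value was 13.7% in U2SURP library 3. SMC1B therefore remained a small share of the SMC1 transcripts in every library, at most 4.74% of SMC1A.

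The head-to-head partners showed other values than the cohesin genes beside them. RIBC2, whose start lies 72 bp from that of SMC1B on the opposite strand with no overlap of the spans, stood at 7.09 ± 0.313 CPM in control and 8.07 ± 0.389 in CHERP knockdown (0.19 ± 0.072, adjusted p = 0.0357). It fell to 4.84 ± 0.177 CPM in RBM17 knockdown (-0.55 ± 0.073, adjusted p = 7.05e-07) and differed by -0.02 ± 0.072 in U2SURP knockdown (0.834). SMC1B in the same comparisons stood at 2.06, -0.09 and 0.90. RIBC1, 38 bp from the start of SMC1A and overlapping it, fell in RBM17 (-0.29 ± 0.12, adjusted p = 0.0384) and U2SURP knockdown (-0.52 ± 0.12, adjusted p = 0.000966), where SMC1A rose, and differed by -0.03 ± 0.12 in CHERP knockdown (0.85). The differences between partners were not tested.

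**Figure D4:**
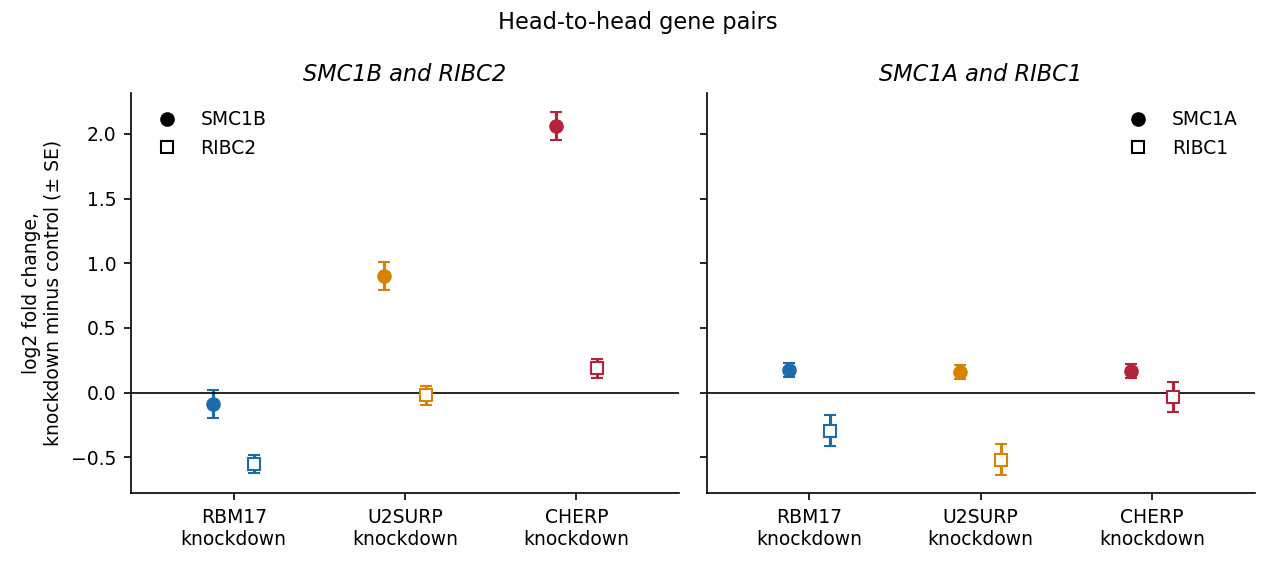
Log2 fold change (y axis, ± SE) against control in the 3 knockdowns for SMC1B and RIBC2 (left) and SMC1A and RIBC1 (right); filled circles are the cohesin genes and open squares their head-to-head partners. SMC1B stands at 2.06 in CHERP knockdown with RIBC2 at 0.19, and SMC1A at 0.16 in U2SURP knockdown with RIBC1 at -0.52.

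Other genes of cohesin control and meiosis place these changes. Of 15 further cohesin regulators, all tested, 9 rose and 1 fell in RBM17 knockdown, 7 rose and 1 fell in U2SURP knockdown and 10 rose and 1 fell in CHERP knockdown, with medians of 0.24, 0.14 and 0.32. Of all genes tested 25.4%, 21.1% and 22.8% were called higher and 29.3%, 22.2% and 24.6% lower in these contrasts. Of protein-coding genes 56.8%, 47.2% and 44.5% were called higher at 100 to 1000 CPM and 50.5%, 36.5% and 34.7% at 10 to 100 CPM. All the regulators but RAD21L1 lay in these ranges in control. CTCF, which stops loop extrusion, rose in all 3 (0.53, 0.44 and 0.34), as did PDS5A, a cohesin cofactor (0.48, 0.42 and 0.32), and PLK1, a mitotic kinase that removes cohesin (0.62, 0.14 and 0.44). PDS5B rose in RBM17 and CHERP knockdown (0.31 and 0.43) and stood at 0.07 in U2SURP knockdown. DDX11, a helicase needed for cohesion, fell in RBM17 and CHERP knockdown (-0.45 and -0.31), and ESPL1, the separase that cleaves the kleisin, fell in U2SURP knockdown (-0.14). RAD21L1, the other meiotic kleisin, was at 0.203 CPM in control and was called in no contrast with it, while it was lower in RBM17 than in U2SURP knockdown (-0.79, adjusted p = 0.0176) and higher in CHERP than in RBM17 knockdown (0.78, adjusted p = 0.0171). The count that fell in U2SURP knockdown ranged from 0 to 2 over the alternatives.

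Of 31 meiotic genes, 20 passed the filter and 11 did not, so the counts cover only those with enough reads. In RBM17 knockdown 2 rose and 13 fell, with a median of -0.80; in U2SURP knockdown 5 rose and 5 fell (median -0.06); and in CHERP knockdown 6 rose and 3 fell (median 0.04). The median over all genes tested was -0.10, -0.02 and -0.0035. Of all genes tested 25.4%, 21.1% and 22.8% were called higher and 29.3%, 22.2% and 24.6% lower. Among protein-coding genes at 1 to 10 CPM 29.4%, 20.8% and 23.6% were called higher and 38.1%, 36.1% and 39.7% lower. Most of the 20 genes lay below 1 CPM in control, under that range. SYCP3, a protein of the synaptonemal complex axis, fell in all 3, from 1.28 CPM to 0.453, 0.633 and 0.510 CPM (-1.50, -1.02 and -1.33). MSH5, a meiotic crossover factor, fell in RBM17 (-1.03) and U2SURP knockdown (-0.27) and stood at -0.05 in CHERP knockdown. MLH3, a mismatch repair protein of crossover resolution, fell in RBM17 (-0.69) and rose in U2SURP knockdown (0.55). TEX15, the most abundant of the 20 at 55.9 CPM in control, fell in all 3 (-0.31, -0.62 and -0.67), although its RBM17 libraries overlapped the controls. MEIOC, a regulator of meiotic entry, fell in RBM17 (-0.37) and rose in U2SURP (0.40) and CHERP knockdown (0.49), and HSF2BP rose in all 3 (0.85, 0.57 and 0.52). SYCE3 stood at 1.66 in U2SURP and 2.86 in CHERP knockdown, from 0.0191 CPM in control. Its libraries held 4 to 8 counts in control, 16 to 22 in U2SURP and 34 to 48 in CHERP knockdown. BRDT stood at 2.04 in RBM17 knockdown, from 0.0145 CPM in control. Its libraries held 3 to 5 counts in control and 5 to 24 in RBM17 knockdown, and overlapped. Both genes passed the filter mainly through libraries where they were high. Their calls are part of the counts of rising genes above, and nothing is read from them.

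**Figure D5:**
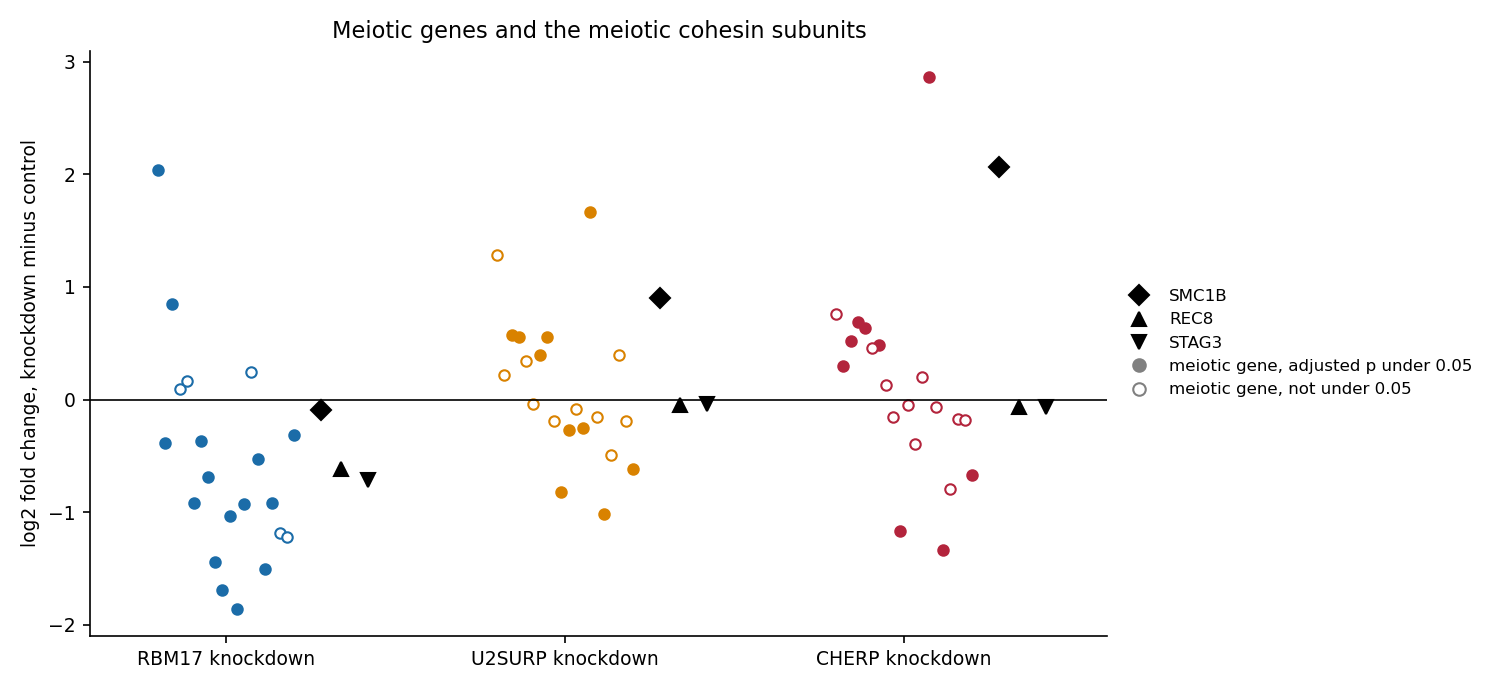
Log2 fold change (y axis) against control of the 20 meiotic genes that passed the filter, in colour, beside SMC1B, REC8 and STAG3 in black, for the 3 knockdowns. Filled circles passed an adjusted p of 0.05. In RBM17 knockdown 13 meiotic genes fell and REC8 and STAG3 lie at -0.62 and -0.72, while SMC1B lies at 0.90 and 2.06 in U2SURP and CHERP knockdown.

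The genes whose pattern over the 12 libraries was most like that of SMC1B were found by Pearson correlation of log2 CPM among 12849 protein-coding genes with a mean of at least 1 CPM. The libraries fall into 4 groups and SMC1B differs between them, so these values describe a pattern of group means. The highest were APPL2 (r = 0.983), CFAP70 (0.980), TTC39A (0.976), NCOA4 (0.973) and TCAIM (0.973). APPL2 had this likeness with a small range, from 43.4 ± 0.410 CPM in control to 46.8 ± 0.292 in U2SURP and 50.1 ± 0.592 in CHERP knockdown. CFAP70, a protein of cilia, spanned more, from 15.7 ± 1.44 CPM in control and 14.1 ± 1.02 in RBM17 knockdown to 21.4 ± 0.396 in U2SURP and 39.9 ± 2.51 CPM in CHERP knockdown. The lowest were SLC39A1, a zinc transporter (-0.989), and COL14A1, a collagen (-0.991), which stood at 90.8 ± 4.65 CPM in control, 98.7 ± 1.90 in RBM17, 52.3 ± 3.42 in U2SURP and 24.8 ± 1.53 CPM in CHERP knockdown. Among the cohesin genes NIPBL (0.838) and STAG2 (0.743) came nearest to SMC1B and STAG1 lay farthest (-0.621).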

How the data were processed

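RNA from 12 libraries of HEK293 cells was analysed, 3 per siRNA group, with groups taken from the labels. The authors deposited raw read counts per Ensembl gene; per the submitters' processing notes, which state no roles, the tools were HISAT2 2.0.5, HTSeq and SAMtools with GRCh38 as build. Reads from overlapping genes may be mixed, since the annotation release and strand setting are not given in the sources used. Of 60554 IDs, 56996 were named by GENCODE 29 (GRCh38), which also gave positions and lengths.

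The members and lists were chosen with earlier results of these data known. After filterByExpr, which left 29003 genes, and TMM scaling, all 4 groups entered a single robust quasi-likelihood fit in edgeR 4.0.16 under R 4.3.3; the common biological coefficient of variation was 0.0866. A call means an adjusted p (Benjamini-Hochberg) under 0.05, and SE is the size of the log2 change over the root of F. The fit was tested on simulated data. Libraries of the same group differed by more than sampling noise, with a chi-square per gene of 11.7 to 51.7, and all were kept. Totals above 252505520 counts leave counting error small except for the scarcest genes.

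Named were the 10 genes, the 3 siRNA targets, genes that overlap a member or start within 5 kb of its ends, up to 2 called genes per list, knockdown and direction by smallest p, and the 5 most and 2 least correlated with SMC1B; neighbours that did not pass the filter are not named, blood markers are given as sums and HEK293 markers by the control level of 5 genes; 1 marker is not reported here. A comparison of protein sequences that had been planned is not reported here. Alternatives were the Wald test of DESeq2 1.42.0, its size factors within edgeR, protein-coding genes alone, no filter, fits of the 2 compared groups, other lengths, raw library totals and leaving out each library; leaving out the libraries of fewest genes in RBM17 knockdown and control, and coding length for levels and for SMC1A to SMC3, were added after seeing the data. Figures were drawn with matplotlib 3.10.9.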

Additional observations from a re-analysis of the deposited data

How the results depend on the processing

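Of 710 settings of single cohesin genes, SMC1B included, 637 were unchanged, 40 lost a call, 8 gained one and 25 changed sign. Unchanged means that direction and side of the threshold were kept. For SMC1B in contrasts with the CHERP libraries it means a move under 1 SD of its log2 CPM in those libraries. Nothing is read from the SMC1B settings that hold control or CHERP libraries. Of 288 settings of list counts, 25 moved by over 1.5 times. SMC3, RAD21 and STAG2 against control in each knockdown, and REC8 and STAG3 in RBM17 knockdown, were called under every alternative run. Every value that changed sign was not called. With protein-coding genes alone these were NIPBL in RBM17 knockdown (-0.052), SMC1A (-0.047) and RAD21 (-0.0040) between RBM17 and U2SURP knockdown, and SMC1A (0.072) and SMC3 (0.014) between CHERP and RBM17 knockdown; without the libraries of fewest genes SMC1A was -0.0018 and 0.0077 in those 2 contrasts. Leaving out a library in turn, called cohesin genes other than SMC1B numbered 8 in RBM17 knockdown and 3 to 6 in CHERP knockdown. They numbered 4 to 6 between CHERP and RBM17 and 1 to 2 between CHERP and U2SURP knockdown. With SMC1B counted, 3 to 6 were called between RBM17 and U2SURP knockdown. The count in U2SURP knockdown against control, 5 to 7, also holds SMC1B, which was picked against the same controls. Nothing is read from that count. Over the same leave-outs values ran from -0.16 to 0.012 for SMC1B and -0.0059 to 0.039 for NIPBL in RBM17 knockdown, from -0.0897 to 0.0069 for REC8 and -0.17 to 0.031 for STAG3 in U2SURP knockdown and from -0.20 to 0.0078 for STAG3 in CHERP knockdown. SMC1A ran from -0.0068 to 0.0504 between RBM17 and U2SURP, -0.051 to 0.012 between CHERP and RBM17 and -0.012 to 0.018 between CHERP and U2SURP knockdown, where REC8 ran from -0.047 to 0.0041 and STAG3 from -0.16 to 0.052. By coding length SMC1B stood at 0.460, 0.384, 0.768 and 1.71% of SMC1A in control, RBM17, U2SURP and CHERP knockdown. The cause of these changes was not tested. No paired analysis was possible because the library numbers differ between groups and the labels name no pairing. Groups of 3 are too small for an outlier test.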

Other observations

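Of 8 condensin genes, which compact mitotic chromosomes, 6 rose and none fell in RBM17 knockdown, 5 rose and 1 fell in U2SURP knockdown and 6 rose and none fell in CHERP knockdown, with medians of 0.34, 0.19 and 0.24. Of all genes tested 25.4%, 21.1% and 22.8% were called higher and 29.3%, 22.2% and 24.6% lower. Most condensin genes lie at 100 to 1000 CPM, where 56.8%, 47.2% and 44.5% of protein-coding genes were called higher. NCAPD2 went from 356 CPM in control to 442, 423 and 546 CPM in RBM17, U2SURP and CHERP knockdown (0.31, 0.25 and 0.62), and SMC2 (0.54, 0.30 and 0.48) and NCAPG2 (0.41, 0.24 and 0.47) rose in all 3. SMC4, the partner of SMC2, fell in U2SURP knockdown (-0.20 ± 0.054, adjusted p = 0.00335) and stood at 0.09 in RBM17 and -0.07 in CHERP knockdown.

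Of 9 genes of the SMC5-SMC6 complex, which acts in DNA repair, 5 rose and 1 fell in RBM17 knockdown, 3 rose and none fell in U2SURP knockdown and 6 rose and 1 fell in CHERP knockdown (medians 0.17, 0.02 and 0.35). Of all genes tested 25.4%, 21.1% and 22.8% were called higher and 29.3%, 22.2% and 24.6% lower. Most of the 9 lay at 10 to 100 CPM in control, though SMC5 (108 CPM) and EID3 (0.347 CPM) did not. Among protein-coding genes at that level 50.5%, 36.5% and 34.7% were called higher and 23.9%, 28.7% and 33.5% lower. The counts that rose in RBM17 and U2SURP knockdown are near that share, and the difference from it in CHERP knockdown was not tested. NSMCE1, its RING subunit, rose from 28.5 CPM to 51.2, 39.6 and 40.8 CPM (0.84, 0.48 and 0.52), and NSMCE2, its SUMO ligase, rose in all 3 (0.36, 0.22 and 0.51). SMC6 rose in RBM17 and CHERP knockdown (0.31 and 0.37) and stood at -0.04 in U2SURP knockdown. SLF2, a loading factor of the complex, fell in RBM17 knockdown (-0.37), and NSMCE3 fell in CHERP knockdown (-0.17, adjusted p = 0.0414) with libraries that overlapped the controls, a call lost under both DESeq2 alternatives. The count of 3 in U2SURP knockdown was 1 without U2SURP library 3 or control library 1.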
